A study of Mus musculus with 20 samples.

Results

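Pax1, Foxc1, Foxc2, Twist1, Twist2, Prrx1, Prrx2, Eya1, Meox1 and Meox2 are transcription factors and co-activators of the paraxial mesoderm and of mesenchyme. The 10 genes were selected because members of this group had been reported higher in the descending thoracic aorta in these data, and their close relatives were added. They are 10 of the 54532 genes counted, and all 10 passed the filter on low counts that left 15543 genes for testing. RNA came from C57BL/6J mice that received either β-aminopropionitrile (BAPN) or water for 1 week, and the labels name no engineered allele. The groups were descending aorta with BAPN, descending aorta with water, ascending aorta with BAPN and ascending aorta with water, with 5 libraries in each. BAPN inhibits the lysyl oxidases, which cross-link elastin and collagen, and weakens the vessel wall. The labels used here give neither age nor sex, and do not say whether the libraries of a group came from separate animals or whether both regions came from the same animals. All p-values therefore measure the spread between these libraries, which may be partly technical.

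Paraxial mesoderm lies beside the neural tube and is divided into somites, whose ventral part, the sclerotome, gives rise to the vertebrae and ribs. Lineage tracing in mouse has placed the origin of descending aortic smooth muscle largely in somitic mesoderm, whereas that of the ascending aorta comes from the cardiac neural crest and the second heart field. Pax1 is a paired-box factor of the sclerotome, Foxc1 and Foxc2 are forkhead factors of somites and vessels, and Meox1 and Meox2 are somite homeobox factors. Twist1 and Twist2 are basic helix-loop-helix (bHLH) factors and Prrx1 and Prrx2 are paired-related homeobox factors of mesenchyme. Eya1 is a co-activator and phosphatase that works with homeobox proteins.

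The libraries held 15.7 to 23.3 M counts. Smooth muscle markers were the most abundant of the 12 marker lists examined, with 8 genes summing to 23250 to 25780 counts per 1 M (CPM) in descending BAPN, 19640 to 22270 in descending water, 22910 to 25450 in ascending BAPN and 19630 to 21740 CPM in ascending water libraries. Markers of several other cell types differed between the regions under water, and their part in the regional levels of the 10 genes was not tested. Of those tested in each list, 5 of 6 lymphatic endothelial, 5 of 7 Schwann cell and 3 of 5 skeletal muscle markers were called lower in the descending aorta, and 4 of 8 general adipocyte markers were called higher. Brown adipocyte markers were divided, with 3 higher and 2 lower of 7. Blood endothelial markers were divided as well, with 1 higher and 2 lower of 8. Among all genes tested, 15.2% were called lower and 12.1% higher in this comparison. The levels of 33 pseudogenes divided the libraries into a set with lower levels (descending BAPN 1 to 5, descending water 3 and 4, ascending water 1, 2 and 3) and a set with higher levels (descending water 1, 2 and 5, ascending BAPN 1 to 5, ascending water 4 and 5). Each BAPN group lies whole within a set while the water groups are divided, so values with the set as a term in the fit are given beside the responses to BAPN.

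The promoters of 4 of the genes are shown here. Pax1 had the widest regional difference of the group, and Foxc1, Twist1 and Prrx1 were called lower with BAPN in the ascending aorta. Each sequence holds 250 bases before and 50 bases after the start in RefSeq (GRCm38.p6), and RefSeq promoters were matched for 7 of the 10 genes. Capitals mark the motif CANNTG, the core to which bHLH factors bind, and TAAT, a core of homeobox sites. They also mark the GC-rich motif GGGCGG and the motif TATAAA of the TATA box. All were searched on both strands, and matches to TAAT on opposite strands may overlap.
Pax1, chr2:147364744-147365043, plus strand: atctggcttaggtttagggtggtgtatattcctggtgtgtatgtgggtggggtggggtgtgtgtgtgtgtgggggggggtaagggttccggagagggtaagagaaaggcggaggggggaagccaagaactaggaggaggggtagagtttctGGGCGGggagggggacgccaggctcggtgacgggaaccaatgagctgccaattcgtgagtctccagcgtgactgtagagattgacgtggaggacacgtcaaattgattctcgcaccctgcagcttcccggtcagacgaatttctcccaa
Foxc1, chr13:31806396-31806695, plus strand: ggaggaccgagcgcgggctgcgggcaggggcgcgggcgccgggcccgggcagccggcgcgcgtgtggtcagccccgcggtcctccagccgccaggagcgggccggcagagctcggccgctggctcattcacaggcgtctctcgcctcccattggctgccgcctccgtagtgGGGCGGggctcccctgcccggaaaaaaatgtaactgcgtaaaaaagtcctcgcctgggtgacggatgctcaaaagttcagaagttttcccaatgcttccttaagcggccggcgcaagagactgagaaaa
Twist1, chr12:33957421-33957720, plus strand: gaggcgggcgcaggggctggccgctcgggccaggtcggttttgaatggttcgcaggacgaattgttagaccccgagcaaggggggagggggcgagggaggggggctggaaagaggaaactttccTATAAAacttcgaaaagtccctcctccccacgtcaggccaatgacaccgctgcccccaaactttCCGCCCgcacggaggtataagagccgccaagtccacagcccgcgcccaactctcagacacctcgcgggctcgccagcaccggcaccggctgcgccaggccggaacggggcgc
Prrx1, chr1:163313601-163313900, minus strand: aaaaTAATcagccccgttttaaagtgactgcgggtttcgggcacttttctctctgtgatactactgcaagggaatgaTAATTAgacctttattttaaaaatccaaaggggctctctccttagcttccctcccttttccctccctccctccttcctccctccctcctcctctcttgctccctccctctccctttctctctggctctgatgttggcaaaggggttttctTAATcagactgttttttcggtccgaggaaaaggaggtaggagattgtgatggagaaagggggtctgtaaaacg
The Foxc1 and Pax1 windows each hold 1 GGGCGG, and the Twist1 window holds 1 GGGCGG and 1 TATAAA. Prrx1 alone among these 4 holds TAAT, at 4 places in either orientation, and no GGGCGG. Of all 32851 RefSeq promoters of this length, 72.3% hold CANNTG, 58% hold TAAT, 35.7% hold GGGCGG and 13.6% hold TATAAA. The base composition of the 4 windows runs from 47.7% GC in Prrx1 through 57.3% in Pax1 and 66% in Twist1 to 67.3% in Foxc1, against a median of 52.7% over all promoters. Of the 7 matched windows, CANNTG is present in that of Meox2 alone, as CATGTG. Such letter matches describe the windows and were not tested for binding. The Pax1 window lies inside the gene as GENCODE M21 annotates it on GRCm38, whose start is at chr2:147361925.

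Set side by side per kilobase of exon, the genes covered a wide range of levels. In descending water libraries Twist1 had the highest mean level at 28.6 CPM per kilobase, followed by Foxc2 at 26.8 and Foxc1 at 24.6, and the ranges of each neighbouring pair overlapped. Prrx1 followed at 16.6 CPM per kilobase, and then Meox2 at 5.51, Prrx2 at 5.48, Pax1 at 3.595, Twist2 at 1.73, Meox1 at 0.647 and Eya1 at 0.2003. Of these lower neighbours the ranges overlapped for Meox2 and Prrx2 only. With BAPN the descending order was led by Foxc2 at 31.4 CPM per kilobase, and Pax1 stood above Prrx2, at 4.715 and 4.23, with overlapping ranges.

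In ascending BAPN libraries Foxc2, Twist1 and Foxc1 led with 24.5, 22.4 and 20.7 CPM per kilobase. In ascending water libraries Twist1, Foxc1 and Foxc2 led with 25.8, 24.2 and 22.75 CPM per kilobase. Meox1 had rank 4 with BAPN and rank 5 with water in this region, at 10.5 and 8.998 CPM per kilobase, and rank 9 in both descending groups. Pax1 and Eya1 were the lowest 2 in the ascending aorta, at 0.0298 and 0.0661 CPM per kilobase with BAPN and 0.04755 and 0.08855 with water, with overlapping ranges. The order depends on the length used: with the longest transcript in place of all exons, the descending water level of Prrx1 was 28.15 and that of Pax1 was 6.11 CPM per kilobase, each over 1.5 times the first value.

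**Figure D1:**
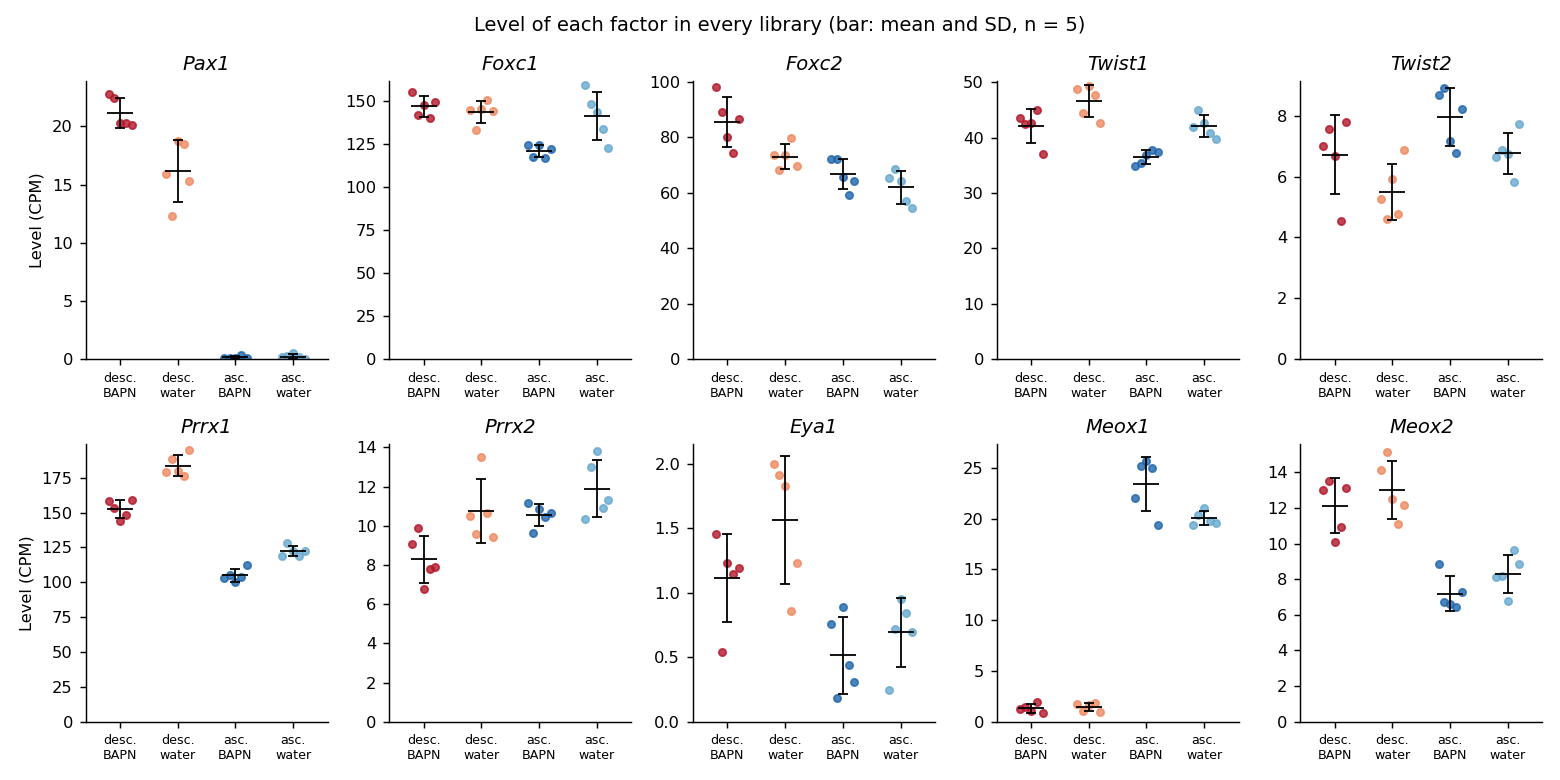
Level in CPM of each factor in every library, with the mean and SD of 5 libraries, for descending BAPN, descending water, ascending BAPN and ascending water from left to right. Pax1 sits at 12.3 CPM or above in every descending library and at 0.539 CPM or below in every ascending library, and Meox1 shows the opposite arrangement.

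Since the genes were chosen on the regional difference, their regional values are given as a description with no test. Under water, 3 of the 10 were higher in every descending than in every ascending library (Pax1, Prrx1 and Meox2) and 1 was lower in every descending library (Meox1), while among all genes tested 8.37% were higher and 11.7% lower without overlap. With BAPN, 5 of the 10 were higher without overlap (the same 3 with Foxc1 and Foxc2) and Meox1 was again lower, beside 9.37% of all genes higher and 12.1% lower without overlap. Twist2 and Prrx2 had lower means in the descending aorta under both treatments. A common label of descending aortic genes therefore fits 3 members plainly and goes against the values of Meox1, Twist2 and Prrx2. Foxc2, Twist1 and Eya1 had higher descending means under both treatments, with overlap under water. Foxc1 was about level under water. In the BAPN groups the region and the pseudogene set coincide. With the set as a term the BAPN regional difference of Foxc1 was 0.13, of Foxc2 0.18, of Twist1 0.11, of Prrx2 -0.57 and of Meox2 1.003, against 0.28, 0.36, 0.21, -0.35 and 0.76 without it. In these bulk samples, fewer cells of a type and less RNA per cell cannot be told apart.

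Pax1 (ENSMUSG00000037034, chr2:147361925-147393295, plus strand) marks the sclerotome in the embryo. Its level was 22.8, 22.4, 20.3, 20.3 and 20.1 CPM in descending BAPN libraries 1 to 5 and 15.9, 12.3, 18.75, 18.5 and 15.3 CPM in descending water libraries 1 to 5. Its ascending level was 0.108, 0.0611, 0.05225, 0.386 and 0.0622 CPM with BAPN and 0.1495, 0.222, 0.539, 0.158 and 0 CPM with water, which stand for 1 to 7 and 0 to 13 counts per library. No ascending library came near a descending one, and in 1 ascending water library no read was counted. The fitted log2 difference between descending and ascending aorta was 7.21 (SE 0.28) with BAPN and 6.12 (SE 0.26) with water, or 148-fold and 69.6-fold. These folds rest on few ascending counts: without ascending BAPN 4 the first was 8.08, and without ascending water 3 the second was 6.89. Chondrocyte markers did not share this pattern, as all 8 tested of 9 were called lower in descending water libraries, where their sum was 74.6 to 86.3 CPM, against 203 to 297 CPM in ascending water. With BAPN the sums were 67.9 to 80.2 CPM in the descending and 163 to 268 CPM in the ascending aorta. Of these markers Matn1 was at 0 in both descending groups and in ascending BAPN, and Col2a1, the cartilage collagen, in descending BAPN.

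Every descending BAPN library had more Pax1 than any descending water library, with means of 21.2 ± 1.29 CPM with BAPN and 16.15 ± 2.64 CPM with water (SD, n = 5 each). The log2 difference of 0.39 (SE 0.14) had an adjusted p of 0.0884 in edgeR's quasi-likelihood test, with p-values adjusted by the Benjamini-Hochberg method over the 15543 genes, and so was not called. It passed in other fits, with adjusted p of 0.012 by DESeq2, 0.0148 by limma-voom, 0.034 with no filter on low counts and 0.0242 with the descending libraries alone, and at 0.0472 and 0.0477 without ascending water 3 or 5. The difference fell short again, at 0.14 (adjusted p = 0.709), with the set of libraries as a term, and was 0.18 (adjusted p = 0.416) within the lower set. In the ascending aorta the difference was -0.70 (95% interval -2.04 to 0.63, adjusted p = 0.587), which at these counts allows a wide range, and -0.42 with the set as a term (adjusted p = 0.79).

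Foxc1 (ENSMUSG00000050295, chr13:31806633-31812476, plus strand) and Foxc2 (ENSMUSG00000046714, chr8:121116171-121118895, plus strand) are close forkhead paralogs required in the mouse embryo for somites and for remodelling of the aortic arch. Foxc1 was at 155, 142, 148, 139.9 and 149 CPM in descending BAPN and 145, 133, 145, 150.3 and 144 CPM in descending water libraries. Its ascending levels were 124, 118, 124, 117 and 122 CPM with BAPN and 159, 148, 143, 134 and 123 CPM with water. The regional difference was 0.28 (SE 0.05) on the log2 scale with BAPN, without overlap, and 0.02 (SE 0.05) with water, where the descending range lay within the ascending one.

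In the ascending aorta Foxc1 fell with BAPN, to 121 ± 3.59 CPM against 141 ± 13.98 CPM in water libraries (log2 difference -0.23, SE 0.05, adjusted p = 0.00922, edgeR). Of the 5 BAPN libraries 3 were below every water library. The 3 ascending water libraries of the lower pseudogene set (1, 2 and 3) had the 3 highest values of the group, and the other 2 (4 and 5) had the lowest. With the set as a term the difference was -0.13 (adjusted p = 0.19), and against ascending water 4 and 5 alone it was -0.08 (adjusted p = 0.456). In the descending aorta it was 0.03 (95% interval -0.08 to 0.14, adjusted p = 0.782), and -0.06 with the set as a term (adjusted p = 0.602).

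Foxc2 was at 98.2, 88.99, 80.15, 74.3 and 86.6 CPM in descending BAPN and 73.7, 68.05, 73.6, 79.9 and 69.8 CPM in descending water libraries. The ascending values were 72.2, 72.1, 65.8, 59.4 and 64.2 CPM with BAPN and 65.5, 68.8, 64.2, 56.9 and 54.6 CPM with water. Thus 4 of 5 descending BAPN libraries exceeded every descending water library, and the regional groups overlapped with water (0.24, SE 0.07) but not with BAPN (0.36, SE 0.07). Foxc2 rose with BAPN in the descending aorta, to 85.6 ± 9.05 CPM against 73.0 ± 4.55 CPM with water (log2 difference 0.23, SE 0.07, adjusted p = 0.0393, edgeR). The call did not hold without descending BAPN 1, 2 or 5, nor without descending water 1, 2, 3 or 5, where the difference ran from 0.18 to 0.23 and the adjusted p from 0.0642 to 0.137. It was also lost with upper-quartile scaling (adjusted p = 0.0765), with the descending libraries alone (0.0526), with the set as a term (0.12, adjusted p = 0.381) and within the lower set (0.15, adjusted p = 0.47). The ascending difference was 0.11 (95% interval -0.05 to 0.26, adjusted p = 0.445). It was 0.22 with the set as a term (adjusted p = 0.113) and 0.26 within the higher set (adjusted p = 0.0928).

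Twist1 (ENSMUSG00000035799, chr12:33957671-33959829, plus strand) keeps mesenchymal cells undifferentiated and drives epithelial-mesenchymal transition. It was at 43.6, 42.4, 42.6, 44.9 and 37.03 CPM in descending BAPN and 48.8, 44.5, 49.4, 47.7 and 42.6 CPM in descending water libraries. Ascending libraries held 34.9, 35.4, 36.8, 37.8 and 37.4 CPM with BAPN and 41.9, 44.9, 42.7, 40.9 and 39.7 CPM with water. The regional difference was 0.21 (SE 0.05) with BAPN and 0.15 (SE 0.05) with water on the log2 scale, and 4 and 3 of the descending libraries lay above all ascending ones.

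All 5 ascending BAPN libraries had less Twist1 than any ascending water library, and the gene fell to 36.45 ± 1.27 CPM in ascending BAPN libraries, against 42.0 ± 1.98 CPM in ascending water libraries (log2 difference -0.205, SE 0.05, adjusted p = 0.022, edgeR). Without ascending BAPN 1 or 2 the adjusted p was 0.0594 and 0.0586, and without ascending water 2 or 3 it was 0.0613 and 0.0539, each above the threshold of 0.05. The difference was -0.14 with the set as a term (adjusted p = 0.219) and within the higher set (adjusted p = 0.272). In the descending aorta it was -0.15 (SE 0.05, adjusted p = 0.0832), which passed with upper-quartile scaling (0.0406), with the set as a term (-0.21, 0.0334) and without descending water 5 (0.0373).

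Twist2 (ENSMUSG00000007805, chr1:91801461-91848028, plus strand), the paralog best known from dermis, was at 7.01, 7.57, 6.68, 4.53 and 7.81 CPM in descending BAPN and 5.27, 4.62, 5.91, 4.78 and 6.87 CPM in descending water libraries. The ascending values were 8.69, 8.92, 7.16, 6.785 and 8.21 CPM with BAPN and 6.63, 6.89, 6.755, 5.83 and 7.71 CPM with water. All 4 ranges overlapped one another, and the regional difference was -0.24 (SE 0.13) with BAPN and -0.30 (SE 0.14) with water. The response to BAPN was not called, at 0.30 (SE 0.14, adjusted p = 0.192) in the descending and 0.23 (SE 0.13, adjusted p = 0.34) in the ascending aorta, or 0.31 and 0.21 with the set as a term (adjusted p = 0.283 descending and 0.563 ascending). Without descending BAPN 4, the lowest library, the descending difference was 0.41 (adjusted p = 0.0418). Whether reads were counted by strand is not given in the sources used here, and 2 annotated genes that overlap Twist2 hold 254 counts, or 10.2% of its own total. Other genes overlap 6 more of the factors, with at most 2.15% of the count of the factor, for Pax1. These shares do not bound the reads that may have been left uncounted because they fell on both genes.

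Prrx1 (ENSMUSG00000026586, chr1:163245119-163313710, minus strand) marks limb and craniofacial mesenchyme and adult fibroblast progenitors. It was at 158, 153, 144, 148 and 159 CPM in descending BAPN and 179, 188, 179.9, 176 and 195 CPM in descending water libraries. Ascending levels were 103, 106, 100.5, 104 and 112 CPM with BAPN and 119, 128, 122, 119 and 123 CPM with water. The 4 groups did not overlap at all, in the order descending water, descending BAPN, ascending water and ascending BAPN from high to low. The descending aorta held 1.45-fold more with BAPN and 1.503-fold more with water than the ascending aorta, a log2 difference of 0.54 and 0.59 (SE 0.04 each).

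Prrx1 fell with BAPN in both regions and was the gene of the 10 with the smallest adjusted p in each. In the descending aorta it fell to 153 ± 6.525 CPM with BAPN, against 184 ± 7.625 CPM with water (log2 difference -0.27, SE 0.04, adjusted p = 7.9e-05, edgeR). In the ascending aorta it fell to 105 ± 4.53 CPM with BAPN, against 122 ± 3.598 CPM with water (log2 difference -0.22, SE 0.04, adjusted p = 0.00136). Leaving out any 1 of the 20 libraries kept both calls, as did the set as a term (-0.25 descending and -0.23 ascending) and every other fit except those within a set, where 5 libraries met 2: the difference was then -0.23 (adjusted p = 0.0523) in the descending and -0.20 (adjusted p = 0.0525) in the ascending aorta. Of 10 fibroblast markers, 1 was called higher and 1 lower with BAPN in the descending aorta, and 2 were called higher in the ascending aorta. Their sums were 4863 to 5682 CPM in descending BAPN and 4830 to 5278 CPM in descending water, and 7654 to 8299 CPM in ascending BAPN and 7145 to 7900 CPM in ascending water. Between regions 7 of the 10 were lower in descending water and 1 was higher, so Prrx1 and the summed fibroblast markers lay in opposite directions; none of the markers was at 0.

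Prrx2 (ENSMUSG00000039476, chr2:30834972-30881251, plus strand), which acts with Prrx1 in the mouse skeleton, was at 9.08, 9.89, 6.796, 7.804 and 7.902 CPM in descending BAPN and 10.5, 9.61, 13.5, 10.7 and 9.45 CPM in descending water libraries. The ascending values were 11.2, 9.65, 10.9, 10.4 and 10.6 CPM with BAPN and 10.4, 13.0, 13.8, 10.9 and 11.3 CPM with water. The regional difference was -0.35 (SE 0.11) with BAPN and -0.14 (SE 0.11) with water, with overlapping groups in both. Prrx2 fell with BAPN in the descending aorta, to 8.30 ± 1.21 CPM with BAPN against 10.75 ± 1.65 CPM with water (log2 difference -0.38, SE 0.11, adjusted p = 0.0273, edgeR), and 4 of 5 BAPN libraries lay below every water library. The call was lost without descending BAPN 3, 4 or 5 (adjusted p = 0.0858, 0.0674 and 0.0572), without descending water 3 (-0.28, adjusted p = 0.113) and with the descending libraries alone (0.0561). It held at -0.51 with the set as a term (adjusted p = 0.00772) and was -0.55 within the lower set (adjusted p = 0.0691). The ascending difference was -0.17 (95% interval -0.40 to 0.05, adjusted p = 0.392), and -0.03 with the set as a term (adjusted p = 0.927).

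Eya1 (ENSMUSG00000025932, chr1:14168954-14310235, minus strand) was the least counted of the 10 genes, with 359 counts over all libraries. It was at 1.46, 0.536, 1.23, 1.15 and 1.19 CPM in descending BAPN and 1.996, 1.91, 1.83, 0.859 and 1.23 CPM in descending water libraries. Ascending libraries had 0.756, 0.183, 0.888, 0.441 and 0.311 CPM with BAPN and 0.249, 0.722, 0.953, 0.8405 and 0.692 CPM with water. The regional difference was 1.07 (SE 0.38) with BAPN and 1.16 (SE 0.35) with water, and in each 4 of 5 descending libraries lay above all ascending ones. The BAPN difference was -0.49 (95% interval -1.19 to 0.22, adjusted p = 0.414) in the descending and -0.40 (95% interval -1.24 to 0.45, adjusted p = 0.638) in the ascending aorta, too wide for a change of the size seen in Prrx1 to be detectable. Allowing for the set, it was -0.30 (adjusted p = 0.744) in the descending and -0.57 (adjusted p = 0.59) in the ascending aorta.

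Meox1 (ENSMUSG00000001493, chr11:101877510-101894374, minus strand) acts with Meox2 in mouse somites. It was at 1.29, 1.43, 1.055, 1.95 and 0.857 CPM in descending BAPN and 1.74, 1.05, 1.61, 1.825 and 0.982 CPM in descending water libraries. In the ascending aorta it was at 22.1, 25.2, 25.65, 24.99 and 19.4 CPM with BAPN and 19.4, 20.4, 21.1, 19.75 and 19.6 CPM with water, so no library of either region approached the other region. Its regional difference was -4.165 (SE 0.15) with BAPN and -3.77 (SE 0.14) with water, that is 17.9-fold and 13.7-fold lower in the descending aorta. All 8 mesothelial markers were called lower in the descending aorta as well, with sums of 2.24 to 18.4 CPM in descending BAPN and 3.25 to 16.8 CPM in descending water, against 287 to 368 CPM in ascending BAPN and 272 to 492 CPM in ascending water. None of the 8 was at 0 in any group, and their part in the level of Meox1 was not tested. With BAPN the difference was -0.17 (SE 0.21, adjusted p = 0.699) in the descending and 0.23 (SE 0.10, adjusted p = 0.217) in the ascending aorta, where 4 of 5 BAPN libraries exceeded all water libraries. With the set as a term it was -0.24 (adjusted p = 0.604) in the descending and 0.30 (adjusted p = 0.247) in the ascending aorta.

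Meox2 (ENSMUSG00000036144, chr12:37108540-37179534, plus strand), known in vessels for holding back the proliferation of smooth muscle and endothelium, had the reverse regional pattern to Meox1. It was at 13.01, 13.5, 10.1, 10.9 and 13.1 CPM in descending BAPN and 14.1, 15.15, 12.5, 11.1 and 12.15 CPM in descending water libraries. The ascending values were 8.85, 6.72, 6.58, 6.45 and 7.28 CPM with BAPN and 8.12, 8.16, 6.755, 9.61 and 8.85 CPM with water. Every descending library exceeded every ascending library of the same treatment, with a fitted level 1.69-fold higher with BAPN (0.76, SE 0.12) and 1.57-fold higher with water (0.65, SE 0.11). The BAPN difference was -0.10 (95% interval -0.33 to 0.13, adjusted p = 0.656) in the descending and -0.20 (95% interval -0.45 to 0.04, adjusted p = 0.347) in the ascending aorta. It was 0.05 (adjusted p = 0.859) with the set as a term in the descending and -0.35 (adjusted p = 0.131) in the ascending aorta.

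**Figure D2:**
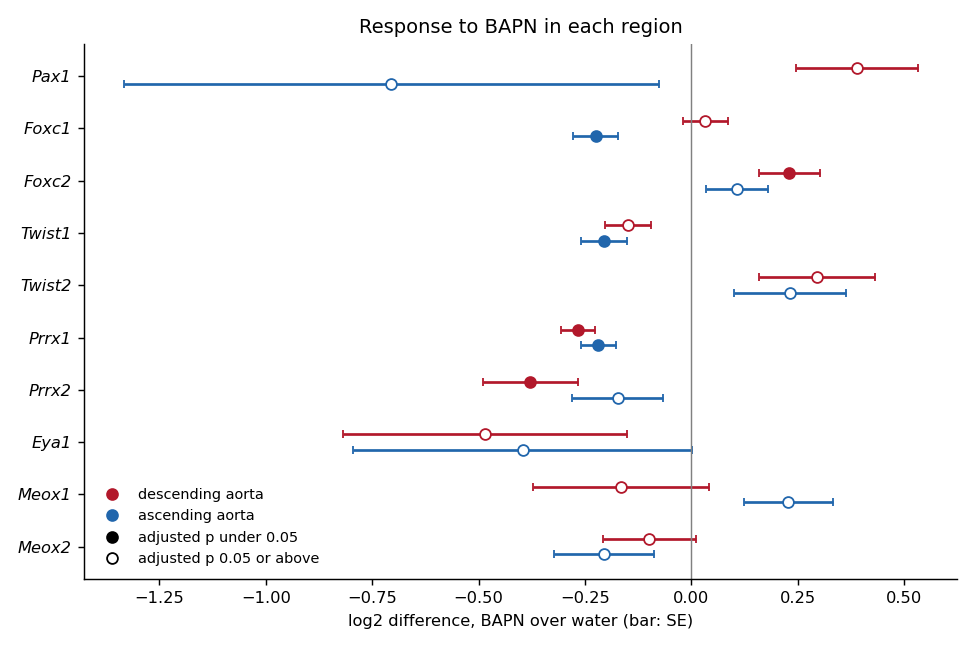
Log2 difference between BAPN and water libraries (horizontal axis, bars are 1 SE) for each factor in the descending and the ascending aorta; filled points have an adjusted p under 0.05. Prrx1 is filled in both regions at -0.27 and -0.22, Foxc2 and Prrx2 are filled in the descending aorta, and Foxc1 and Twist1 in the ascending aorta.

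With BAPN, 2 of the 10 genes were called lower and 1 higher in the descending aorta, and 3 were called lower and 0 higher in the ascending aorta. Of the genes with a higher ascending mean, Meox1 had an unadjusted p under 0.05 in edgeR, and DESeq2 and limma-voom also called 0 higher there. Among all 15543 genes, 4.54% were called lower and 6.18% higher in the descending aorta, and 2.91% lower and 3.44% higher in the ascending aorta. The median log2 difference of the 10 genes was -0.12 in the descending and -0.205 in the ascending aorta, where that of all genes was -0.00027 and -0.0051. Within sets of libraries, where 5 BAPN libraries met 2 water libraries, the smallest adjusted p was that of Prrx1 in each region (0.0523 descending and 0.0525 ascending), so no call was made. With the set as a term, 3 were called lower in the descending aorta (Twist1, Prrx1 and Prrx2) and 1 in the ascending aorta (Prrx1). For the difference between regions in the response to BAPN, 0 of the 10 genes were called by edgeR, and 0 by DESeq2 or limma-voom. Among all genes the share called was 0% by edgeR (0 of 15543, with 1070 at an unadjusted p under 0.05), while DESeq2 called 14 and limma-voom 0. Foxc1 was the 1 gene of the 10 with an unadjusted p under 0.05 for this difference, at 0.26 (SE 0.07, adjusted p = 0.354, edgeR). Its value was 0.08 with the set as a term (SE 0.08, adjusted p = 0.959, edgeR). In that fit the smallest adjusted p of the 10 genes was that of Prrx2, at 0.853. The responses to BAPN and their difference between regions use the libraries of the regional comparison on which the genes were chosen. Their p-values may therefore depend on that choice.

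Ratios between paralogs need no scaling between libraries and were computed from the counts per kilobase in each library. They were tested for BAPN against water with an exact 2-sided permutation test over 8 comparisons, where the smallest p possible for 5 against 5 is 0.00794. The log2 ratio of Foxc1 to Foxc2 was -0.44, -0.43, -0.22, -0.19 and -0.32 in descending BAPN and -0.13, -0.13, -0.12, -0.19 and -0.053 in descending water libraries, a difference of -0.19 (SE 0.06, exact p = 0.0159, adjusted p = 0.0423). In the ascending aorta the ratio was -0.32, -0.39, -0.19, -0.12 and -0.18 with BAPN and 0.18, 0.0051, 0.057, 0.13 and 0.067 with water. Per kilobase, Foxc1 was thus below Foxc2 in every ascending BAPN library and above it in every ascending water library. This crossing depends on the exon lengths used. In CPM the ascending mean of Foxc1 was above that of Foxc2, at 121 against 66.7 with BAPN and 141 against 62.0 with water. The difference in the log2 ratio between treatments, which does not depend on length, was -0.33 (SE 0.06, exact p = 0.00794, adjusted p = 0.0423). Within the sets of libraries the 2 differences were -0.16 in the descending and -0.34 in the ascending aorta, where an exact test of 5 against 2 cannot go below p = 0.0952.

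Twist1 exceeded Twist2 per kilobase in every library, by a median of 12.1-fold in descending BAPN, 17.96-fold in descending water, 8.85-fold in ascending BAPN and 12.3-fold in ascending water libraries. The BAPN difference in its log2 ratio to Twist2 was -0.43 (SE 0.21, exact p = 0.119, adjusted p = 0.19) in the descending aorta. In the ascending aorta the ratio fell by 0.44 with BAPN (SE 0.12, exact p = 0.0159, adjusted p = 0.0423), and the values within the sets were -0.52 in the descending and -0.38 in the ascending aorta. For Prrx1 and Prrx2 the log2 ratio differed by 0.11 (SE 0.14) in the descending and -0.05 (SE 0.08) in the ascending aorta, with an adjusted p of 0.617 for both by the exact test. For Meox1 and Meox2 the difference was -0.04 (SE 0.32, adjusted p = 0.929, exact test) in the descending and 0.43 (SE 0.17, adjusted p = 0.111, exact test) in the ascending aorta. Median Meox1 per kilobase was 0.114 of Meox2 in descending BAPN and 0.132 in descending water, against 3.95 in ascending BAPN and 2.52 in ascending water libraries, and the 2 regions did not overlap. Within the sets the differences were 0.32 for the Prrx pair and -0.46 for the Meox pair in the descending aorta, and -0.13 and 0.61 in the ascending aorta.

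**Figure D3:**
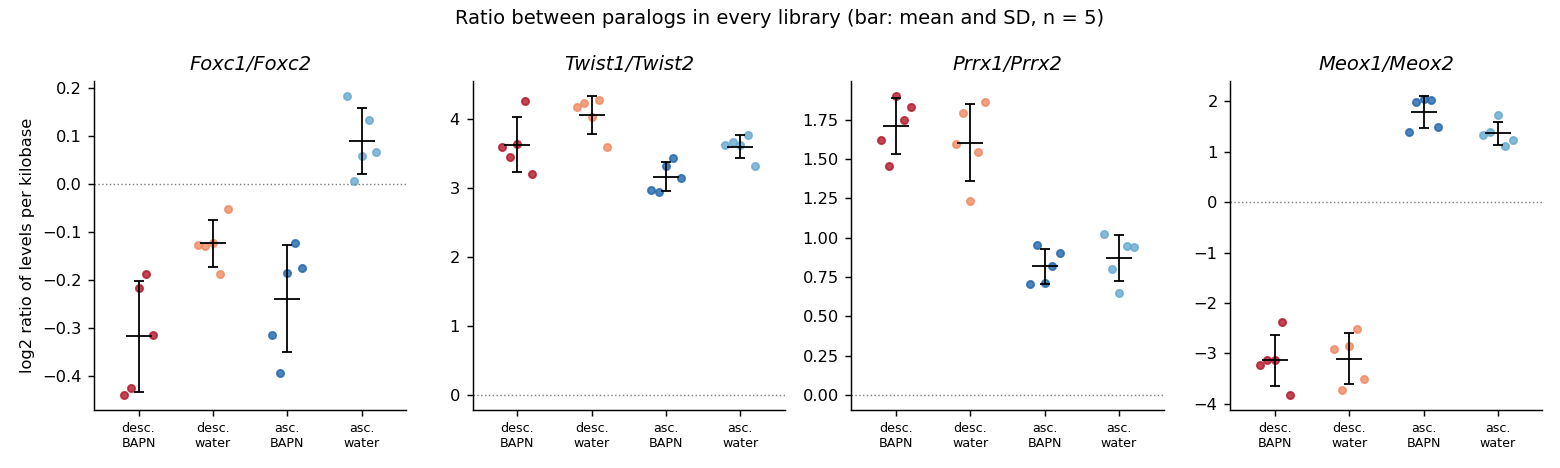
Log2 ratio of the levels per kilobase of each pair of paralogs in every library, with the mean and SD of 5 libraries; the dotted line is an equal level. The Foxc1 to Foxc2 ratio lies above 0 in the 5 ascending water libraries and below 0 in the other 15, and the Meox1 to Meox2 ratio lies on opposite sides of 0 in the 2 regions.

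Genes known to work beside these factors were listed in 6 groups of 84 genes, of which 69 passed the filter. Under water, 14 of the 69 were called higher (20.3%) and 27 lower (39.1%) in the descending aorta, against 12.1% and 15.2% of all genes. With BAPN they were 14 (20.3%) and 28 (40.6%), against 14.2% and 15.6%. The region and the pseudogene set coincide in the BAPN groups. With the set as a term, 1131 of all genes were called higher and 1624 lower between these groups, against 2206 and 2420 without it. With BAPN against water, 3 list genes were called higher (4.35%) and 2 lower (2.9%) in the descending aorta, against 6.18% and 4.54% of all genes. There were 2 called higher (2.9%) and 3 lower (4.35%) in the ascending aorta, against 3.44% and 2.91% of all genes, so the shares were near those of all genes. List genes are given as means ± SD (n = 5) in CPM under water, with adjusted p from edgeR.

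Of the sclerotome and somite factors, 12 of 20 were tested, 3 were higher, 3 lower and 4 had no count in any library. Pax9, the paralog of Pax1, was at 4.09 ± 0.454 CPM in the descending and 1.597 ± 0.135 CPM in the ascending aorta (1.35, SE 0.22, adjusted p = 2.95e-05). Tbx18, a T-box factor of the anterior somite and of mural cells, was 1.501-fold higher (0.59, SE 0.06, adjusted p = 3.8e-08). Sox9, the chondrogenic factor that acts downstream of sclerotome induction, lay the other way, at 2.35 ± 0.721 CPM in the descending and 19.4 ± 2.39 CPM in the ascending aorta (-3.03, SE 0.13, adjusted p = 1.5e-15). The somite segmentation ligand Dll1 rose with BAPN in the descending aorta, to 13.4 ± 1.11 CPM against 7.63 ± 1.24 CPM with water (0.82, SE 0.14, adjusted p = 0.000375), and its difference was 0.96 with the set as a term (adjusted p = 0.000418). Tbx18 fell with BAPN in the ascending aorta, to 52.3 ± 4.065 CPM against 60.5 ± 1.17 CPM with water (-0.21, SE 0.06, adjusted p = 0.0476). This call was lost with the set as a term (-0.18, adjusted p = 0.212), within the higher set (-0.199, adjusted p = 0.178) and in 15 of 20 fits that each left out 1 library, whereas the descending call of Dll1 held in all fits of these kinds.

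In the list of Eya and Dach genes and their partners, 2 of 8 tested were higher and 2 lower in descending water libraries. Eya2, a paralog of Eya1, was at 9.27 ± 1.44 CPM in the descending and 0.577 ± 0.108 CPM in the ascending aorta (3.98, SE 0.17, adjusted p = 8.64e-16). Eya4 differed the other way, at 2.33 ± 0.2698 CPM in the descending and 9.88 ± 0.625 CPM in the ascending aorta (-2.08, SE 0.12, adjusted p = 2.74e-13). Six2, a homeobox partner of Eya proteins, was 8.99-fold lower (-3.17, SE 0.31, adjusted p = 7.35e-09) in the descending aorta.

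The bHLH partners and mesenchymal transition factors held 1 higher and 7 lower among 14 tested. Hand2, a bHLH factor of neural crest and heart that pairs with Twist1, was at 0.727 ± 0.316 CPM in the descending and 60.5 ± 3.75 CPM in the ascending aorta (-6.385, SE 0.13, adjusted p = 1.08e-21). Hand1 had 0 counts in all descending libraries and 202 counts over the ascending water libraries, at least 59.3-fold lower when 3 counts are allowed over the group. Tcf21, a bHLH factor of epicardium and adventitial fibroblasts, was at 0.9175 ± 0.342 CPM in the descending and 30.7 ± 1.85 CPM in the ascending aorta (-5.04, SE 0.14, adjusted p = 1.2e-19). The E protein Tcf4, a general bHLH partner, was 1.835-fold lower (-0.88, SE 0.05, adjusted p = 8.45e-13). Cardiomyocyte markers, all 8 called lower in the descending aorta, summed to 69.8 to 81.9 CPM in descending BAPN, 67.7 to 82.0 CPM in descending water, 723 to 1299 CPM in ascending BAPN and 441 to 1034 CPM in ascending water, with Myl2 at 0 in descending water. Most of the descending sums came from Ryr2, with a mean of 66.6 CPM in descending BAPN and 60.7 CPM in descending water. Its ascending means were 82.3 CPM with BAPN and 74.5 CPM with water. The part of the cardiomyocyte markers in the levels of the Hand genes was not tested.

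Of 11 genes tested in the forkhead list, 6 were higher and 1 lower in the descending aorta under water. With BAPN, 4 were higher and 1 lower. The lower gene was the same in both, a non-coding RNA listed for its position and not itself a forkhead gene. Foxf2, a neighbour of Foxc1 on chromosome 13, was at 1.645 ± 0.406 CPM in the descending and 0.117 ± 0.1225 CPM in the ascending aorta (3.82, SE 0.48, adjusted p = 5.9e-07). Foxp1, at 144 ± 12.8 CPM in the descending and 106 ± 3.56 CPM in the ascending aorta, was 1.37-fold higher (0.45, SE 0.06, adjusted p = 5.17e-07), and Foxd1 was 1.84-fold higher (0.88, SE 0.16, adjusted p = 8.6e-05). Foxs1, a forkhead factor of perivascular cells, rose with BAPN in both regions: to 36.4 ± 9.63 CPM against 15.8 ± 2.999 CPM with water in the descending aorta (1.20, SE 0.18, adjusted p = 7.69e-05) and to 23.8 ± 6.599 CPM against 9.91 ± 1.99 CPM with water in the ascending aorta (1.26, SE 0.19, adjusted p = 0.000116). Foxm1, which drives the cell cycle, was 1.67-fold higher in descending than ascending water libraries (0.74, SE 0.13, adjusted p = 8.77e-05). It fell with BAPN in the descending aorta to 4.695 ± 0.609 CPM, against 8.71 ± 0.5696 CPM with water (-0.89, SE 0.14, adjusted p = 8.24e-05). With the set as a term the Foxs1 difference was 1.06 (adjusted p = 0.00331) in the descending and 1.41 (adjusted p = 0.000496) in the ascending aorta, and the descending Foxm1 difference was -0.93 (adjusted p = 0.000489).

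Genes of the paired-type and mesenchymal homeobox list were mostly lower in the descending aorta, with 9 lower and 1 higher of 11 tested under either treatment. Among the 9 is a T-box gene, which is not a homeobox gene. Msx1, a homeobox factor of neural crest mesenchyme, was at 7.82 ± 1.04 CPM in the descending and 27.9 ± 3.315 CPM in the ascending aorta (-1.83, SE 0.09, adjusted p = 3.92e-14). Alx1, a paired-type factor of craniofacial mesenchyme, had 0 counts in descending water libraries and 116 in ascending water libraries, at least 34.03-fold lower when 3 counts are allowed over the group. Meis2 was 1.71-fold lower (-0.77, SE 0.06, adjusted p = 4.65e-11) and Meis1 was 1.51-fold lower (-0.60, SE 0.06, adjusted p = 5.3e-09). Meis1 also fell with BAPN in the ascending aorta, to 35.1 ± 2.34 CPM against 42.8 ± 1.48 CPM with water (-0.29, SE 0.06, adjusted p = 0.00216), and was -0.25 with the set as a term (adjusted p = 0.0325).

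Hedgehog signals from the notochord induce Pax1 in the sclerotome, and of the 13 genes of that pathway tested 1 was higher and 5 were lower in the descending aorta. The higher gene was Hhip, which binds and restrains hedgehog ligands and is itself a target of the pathway, at 48.7 ± 4.26 CPM in the descending and 12.05 ± 1.57 CPM in the ascending aorta (2.01, SE 0.11, adjusted p = 2.66e-13). The receptor Ptch1, also a target, lay the other way, at 58.2 ± 2.54 CPM in the descending and 95.3 ± 8.41 CPM in the ascending aorta (-0.71, SE 0.06, adjusted p = 1.7e-09). The co-receptors Boc (-0.46, SE 0.06, adjusted p = 2.59e-06) and Cdon (-0.27, SE 0.07, adjusted p = 0.00339) were lower too.

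**Figure D4:**
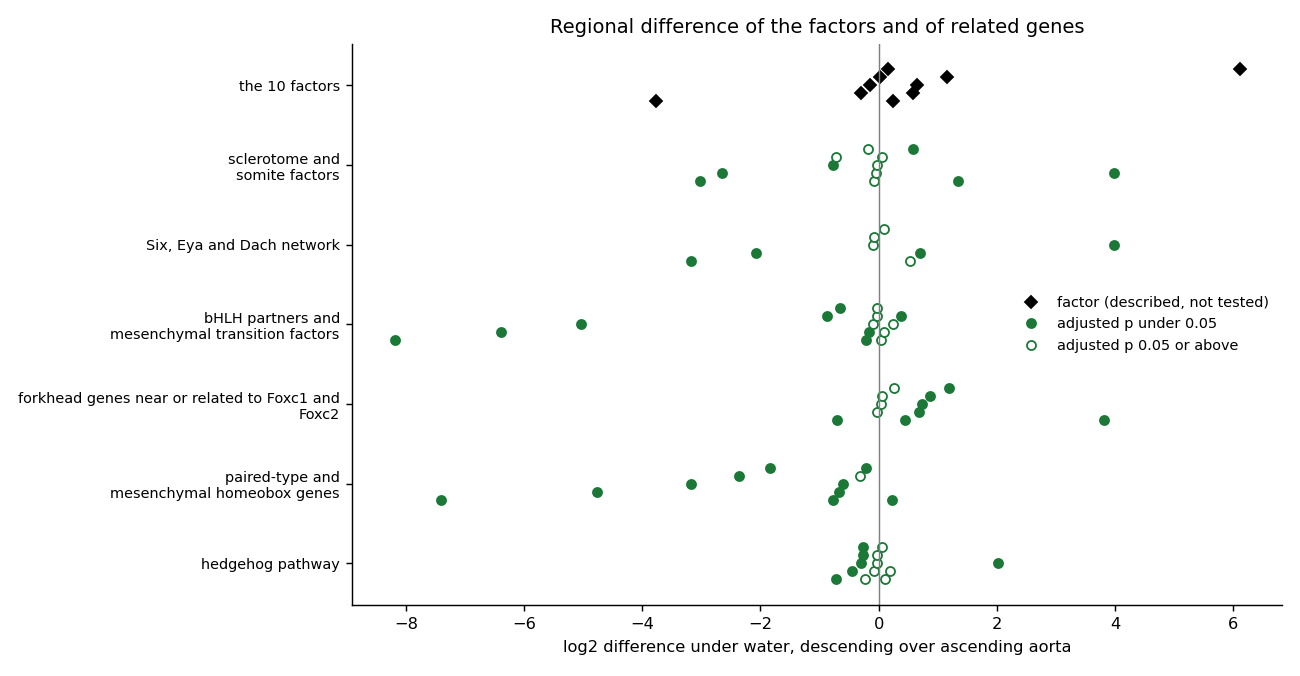
Log2 difference between descending and ascending aorta under water (horizontal axis) for the 10 factors, as diamonds with no test, and for the tested genes of 6 related lists, as circles filled where the adjusted p was under 0.05. Most points of the forkhead list lie right of 0 and most points of the homeobox list lie left of it. Points are staggered vertically for legibility. The far left points of Hand1 and Alx1 are fitted values of genes with 0 counts in descending water libraries and are no bounds.

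Over the 20 libraries, the genes whose log2 CPM was most correlated with the mean standardised profile of the 10 factors were Col3a1 (r = 0.909), a fibrillar collagen, Nrep (0.901), Chpf (0.898), Aldh18a1 (0.894) and Mcrip1 (0.892). Once group means were removed, the closest genes were Hgh1 (r = 0.853), Tbcc (0.844), Chst2 (0.821), Tcf3 (0.795), an E protein that pairs with Twist factors, and Ubtd2 (0.793). For single factors the closest genes by deviations were Rasef for Pax1 (0.909), Pik3r4 for Foxc1 (0.871), Fam84a for Foxc2 (0.87), Med9 for Twist1 (0.852) and Abca7 for Twist2 (0.909). They were Eif2d for Prrx1 (0.818), 0610009L18Rik for Prrx2 (0.79), Fbln2 for Eya1 (0.842), the mesothelial marker Msln for Meox1 (0.872) and Mocs2 for Meox2 (0.844). These are the highest of 15543 values over 20 libraries that share depth and scaling, and are given as a description. Some rest partly on low counts: Pax1 had 1 to 7 per library in ascending BAPN and 0 to 13 in ascending water. Msln averaged 1.92 CPM in descending BAPN and 2.09 CPM in descending water.

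Once group means were removed, the 10 factors deviated together in some pairs and apart in others. Over the 45 pairs the correlation of deviations ran from -0.56 to 0.73 with a median of 0.11, and 28 were positive (20 libraries each). The closest pairs were Twist1 with Meox1 (0.73) and Foxc1 with Foxc2 (0.70), and the most opposed were Prrx1 with Meox1 (-0.56) and Twist2 with Meox1 (-0.54). Twist1 and Twist2 deviated in opposite directions (-0.50), while Prrx1 and Prrx2 had a correlation of 0.11. Against the summed fibroblast markers the correlations ran from -0.24 for Twist1 to 0.57 for Meox2. The sets of libraries were not removed from these deviations. Meox1 had 18 to 34 counts per library in descending BAPN and 16 to 34 in descending water, so its deviations there rest on few counts.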

How the data were processed

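RNA-seq counts of 20 libraries were used. The authors deposited raw counts of reads per gene, as a table of the series and as a file per library; both hold equal values for the 20 libraries. The submitters' processing notes name fastp, STAR 2.5, HTSeq 0.6.1 and the mm10 build; settings, strand and annotation are not given in the sources used here. Gene symbols, positions and exon lengths are from GENCODE M21 on GRCm38 (54495 gene IDs matched, 37 did not). Groups were read from the labels, with regions from the title letters and the series title.

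Genes were filtered with filterByExpr (minimum count 10, minimum total 15), TMM factors (trimmed mean of M values) were used for scaling, and 1 quasi-likelihood model with a coefficient for each of 4 groups was fitted in edgeR 4.0.16 (R 4.3.3; 16 residual degrees of freedom). Adjustment was by Benjamini-Hochberg over 15543 genes, and adjusted p under 0.05 was called. Standard errors were taken from the log2 difference and its F statistic. Levels are CPM, divided by exon length where genes are compared. Paralog ratios (0.5 added to each count) were compared by exact permutation in scipy 1.17.1. Code was tested on simulated data. Alternatives were relative log expression and upper-quartile scaling, 2 other filters, DESeq2 1.42.0, limma-voom (limma 3.58.1), a fit to the compared groups, a replicate block, the set of libraries by pseudogenes (33 with -ps in the symbol and a mean of at least 2 CPM), and leaving out each library. Bounds against 0 counts use 3 counts over the group and cover counting error only.

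The 10 genes, the lists and the division into sets were chosen with earlier results of these data known. Named besides the 10 genes are, per list, up to 4 called genes by smallest p between regions under water and up to 2 called with BAPN, and the genes most correlated with the factors. Some genes that this rule names are not reported here. Markers and overlapping genes named for their counts were chosen after their values were seen. Isoforms were not analysed here. Figures were drawn with matplotlib 3.10.9.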

Additional observations from a re-analysis of the deposited data

Results flagged for a closer look

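Among the 40 combinations of a factor and a group, 1 held a library far from the other 4. Pax1 in ascending BAPN library 4 was at 0.386 CPM, whereas the other ascending BAPN libraries were at 0.0523 to 0.108 CPM. These values stand for 7 counts against 1 or 2 counts. Its gap to the nearest library was 0.833 of the range of the group, above the critical value of 0.71 for 5 samples. Chance marks about 1 in 20 such groups, so 1 of 40 is within what chance gives.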

How the results depend on the processing

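Of the counts of calls, 5 moved by more than 1.5 times. With the set of libraries as a term, 1 of the 10 factors was called with BAPN in the ascending aorta, and within the sets 0 were called in either region, where the fits hold 2 water libraries. The count reported above was 3 in each region. Leaving out each of the 20 libraries gave 1 to 4 called factors in the descending and 2 to 3 in the ascending aorta, and 0 for the difference between regions; the descending count was 1 without descending BAPN 5 or descending water 3. The count of called list genes between regions was 39 to 42 under water and 38 to 42 with BAPN in the same way. The other 142 counts stayed within 1.5 times. No value of a single factor that was called changed its direction under these alternatives.

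The replicate numbers were not taken to pair the samples, since not every correlation between libraries of the same number was over 0.1: the correlations of deviations ran from -0.048 to 0.167. With the replicate number as a block shared by all 4 groups, 3 factors were called in each region and 0 for the difference between regions. In that fit the genes called with BAPN numbered 1762 in the descending and 1125 in the ascending aorta. Under BAPN each descending library correlated best with the ascending library of its number, a hint from the data and not from the design. No fit paired the regions within a treatment, so the effect of such a pairing was not tested. A fit to the compared groups alone does not exist for the difference between regions, which uses all 4 groups. Depth limits Eya1 in all groups and Pax1 in the ascending aorta, which had 3 to 39 and 0 to 13 counts per library. The values of paralog ratios within the sets, and those of list genes that allow for the set or leave out a library, were chosen after seeing the data.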
